A study of Mus musculus with 14 samples.

Results

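The cyclins, cyclin-dependent kinases (Cdks), E2f transcription factors and Mcm helicase genes that drive cells through the cell cycle were followed across 14 mouse cell samples, each measured on 1 Affymetrix expression array. Members were taken by gene symbol alone: the A-, B-, D- and E-type cyclins, all numbered Cdk, E2f and Mcm genes, and Cdc6, Cdc7, Cdc20, Cdc25a, Cdc25b, Cdc25c and Cdc45. This gave 50 genes of the 18193 genes on the array, and 1 D-type cyclin gene was left out by the rule and is not reported here. Each gene was read from its brightest probe set. Of the 50 genes, 48 were bright enough to test, with at least 2 arrays at or above the median of all deposited values (5.42, log2). Ccna1, a cyclin best known from the germline, lay between 3.32 and 4.08 on all arrays and Ccnb3, another cyclin best known from the germline, between 2.12 and 2.90, and neither was tested.

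The study compared partial iPSCs, cells halted on the way from fibroblasts to induced pluripotent stem cells, with the iPSCs they became and with embryonic stem cells (ESCs). The partial iPSCs were 2 clones, 2B1 and 5C5, both female C57BL/6, grown with LIF and serum. The 2i iPSCs were the same 2 clones after conversion in 2i medium, which contains inhibitors of Mek and Gsk3 kinases. The ESCs were 2 male lines grown with LIF and serum, a Nanog-GFP transgenic C57BL/6 line derived from blastocysts and the wild-type 129sv line EBRTcH3. Embryonic fibroblasts (MEFs) of mixed sex from Nanog-GFP transgenic C57BL/6 mice, grown without LIF, gave 1 array; their age is 12.5 dpc in the sample title and 13.5 dpc in the series text. In the other arm, 2B1 partial iPSCs in LIF and serum were infected with retrovirus carrying no insert (empty vector), Cnot1, Cnot2 or Cnot3 (subunits of the Ccr4-Not mRNA deadenylase complex), these 3 together (Cnot123), Trim28 (a transcriptional co-repressor) or the pluripotency factor Nanog, with 1 array each. Each group of 2 arrays holds 1 array per clone or line, so the error behind a p-value is the distance between clones or lines, with no repeat of a clone. The ESCs differ from the partial iPSCs in sex and, for EBRTcH3, in strain, and the 2i iPSCs differ from their parent clones in medium as well as in state; these cannot be told apart from the difference in cell type.

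In a dividing cell, D-type cyclins with Cdk4 or Cdk6, and then E-type cyclins with Cdk2, phosphorylate the retinoblastoma protein and so free E2f factors, which switch on genes needed for DNA replication. The Mcm2 to Mcm7 proteins form the ring-shaped helicase that Cdc6 and Cdt1 load onto replication origins and that Cdc7 and Cdc45 help to activate, while A- and B-type cyclins with Cdk1, released by Cdc25 phosphatases, carry the cell into mitosis. Mouse ESCs are known for a short G1 phase, for E-type cyclin and Cdk2 activity through most of the cycle, and for low levels of D-type cyclins.

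Deposited values are on the log2 scale, so a difference of 1 is a 2-fold difference, and only values of 1 gene are compared between arrays. The 14 arrays fell into 2 separately scaled blocks of 7, the transduced arrays forming one of them, and comparisons were made within a block. A list of 7 pluripotency genes averaged 5.81 to 6.04 on the partial arrays, 12.0 to 12.2 on the 2i arrays and 12.4 to 12.5 on the ESC arrays, and 5.22 to 5.65 on the transduced arrays; Nanog read at most 4.36 on the partial and transduced arrays. The partial clones thus showed Nanog near background beside high Pou5f1 (13.2 in each clone). A list of 10 fibroblast genes averaged 12.4 in MEFs, 8.97 to 9.18 in partial iPSCs, 9.72 to 9.79 in 2i iPSCs and 4.66 to 4.71 in ESCs. Probe sets for Cnot2, Cnot3, Trim28 and Nanog were not raised on the array labelled with that gene: Cnot2 read 9.69 against 10.01 on the vector array, Cnot3 9.01 against 8.95, Trim28 12.0 against 12.0 and Nanog 3.12 against 4.11. These values, 1 probe set a gene, do not bear out the labels; Cnot1 had no probe set with 1 gene symbol, and whether the probe sets can detect the introduced cDNAs was not tested. Below, the Cnot1 array is the array labelled Cnot1, and likewise for the others, and directions against the vector rest on those labels. In RNA from whole cultures, fewer cells in a phase of the cycle and less RNA per cell cannot be told apart.

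The replication helicase genes stood lowest in MEFs, higher in partial iPSCs, and higher again in 2i iPSCs and ESCs. For all 9 Mcm genes both 2i arrays lay above both partial arrays, and so did both ESC arrays. Over all tested genes such separation upwards was found for 34.2% (2i) and 29.8% (ESCs), and over the 48 members for 21 and 24 genes. The median difference from partial iPSCs over the 9 Mcm genes was 0.81 in 2i iPSCs and 0.94 in ESCs, beside 0.03 and 0.00 over all tested genes. These 2 comparisons share the partial arrays, so their values are given side by side. The separation of all 9 genes was also present after quantile normalization and after centring each array on its median. Against partial iPSCs, 3 of the 9 passed the limma test in ESCs (Mcm3, Mcm5 and Mcm10), beside 6.09% of all tested genes that passed as higher. In 2i iPSCs 0 of 9 passed, beside 3.55% higher. There 6 had an unadjusted limma p below 0.05, a level not counted over all genes.

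Mcm3, a subunit of the helicase ring, read 10.88 and 10.86 in partial clones 2B1 and 5C5, 11.71 and 11.61 in the 2i cells of the same clones, 11.86 and 12.12 in Nanog-GFP and EBRTcH3 ESCs and 10.05 in MEFs. The groups did not overlap and kept the order MEF, partial, 2i, ESC. ESCs exceeded partial iPSCs by 1.12 ± 0.19 (SE, n = 2 against 2, limma adjusted p = 0.0203), and the 2i difference of 0.79 ± 0.19 did not pass (limma adjusted p = 0.0800). Mcm5, also a ring subunit, read 11.38 and 11.08 in partial iPSCs, 12.11 and 12.08 in 2i iPSCs, 12.28 and 12.39 in ESCs and 10.60 in MEFs. It showed the same order without overlap, with an ESC difference of 1.10 ± 0.19 (SE, limma adjusted p = 0.0228) and a 2i difference of 0.86 ± 0.19 (SE, limma adjusted p = 0.0698). Mcm10, which joins the helicase as it starts to unwind DNA, read 9.63 and 9.55 in partial iPSCs, 10.61 and 10.48 in 2i iPSCs, 10.72 and 10.996 in ESCs and 7.94 in MEFs. Its ESC difference was the largest of the Mcm genes, 1.27 ± 0.19 (SE, limma adjusted p = 0.0157), and its 2i difference of 0.96 ± 0.19 came nearest to the threshold among them (limma adjusted p = 0.0558). Another Mcm10 probe set that passed the filter, though dim, differed from partial iPSCs by -0.22 in 2i iPSCs and 0.52 in ESCs. These ESC calls shared the limits of 2 arrays a group. Mcm3 and Mcm10 lost theirs without either partial clone or without either 2i array, and Mcm5 without 5C5 or either 2i array. Without a 2i array the fit is that of the 4 compared arrays alone, as a lone 2i array adds nothing to the spread. Those losses thus come from leaving the 2i spread out of the fit.

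The other helicase genes differed less or varied more. Mcm2 read 10.94 and 10.22 in partial iPSCs, 11.66 and 11.28 in 2i iPSCs, with 11.65 and 11.64 in ESCs, so the distance between the partial clones was large beside the difference in ESCs (1.06 ± 0.30, SE, limma adjusted p = 0.0755). Mcm6 read 11.58 and 11.40 in partial iPSCs against 11.63 and 11.63 in 2i iPSCs, the smallest 2i difference of the family (0.14), and 11.89 and 11.88 in ESCs. Mcm4 and Mcm7 stood 0.42 and 0.27 higher in 2i iPSCs and 0.64 and 0.54 higher in ESCs, none past the test. Mcm8, a helicase subunit used in recombination repair, was the exception to the order: it read 8.77 and 8.75 in partial iPSCs, 9.41 and 9.73 in 2i iPSCs, with 9.38 and 9.09 in ESCs, so both 2i arrays lay above both ESC arrays, as for 8 of the 48 members and 26.4% of all tested genes, although not after centring each array on its median. Its partner Mcm9 was dim, from 5.69 and 6.11 in partial iPSCs to 6.97 and 6.71 in ESCs, and was the Mcm gene that MEFs (6.25) did not hold lowest. Between 2i iPSCs and ESCs, 0 of the 9 genes passed the limma test, beside 3.85% of all tested genes, and 0 had an unadjusted p below 0.05. Still, 6 of them (Mcm3, Mcm4, Mcm5, Mcm6, Mcm7 and Mcm10) had both ESC arrays above both 2i arrays, beside 23.9% of all tested genes and 19 of the 48 members.

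**Figure D1:**
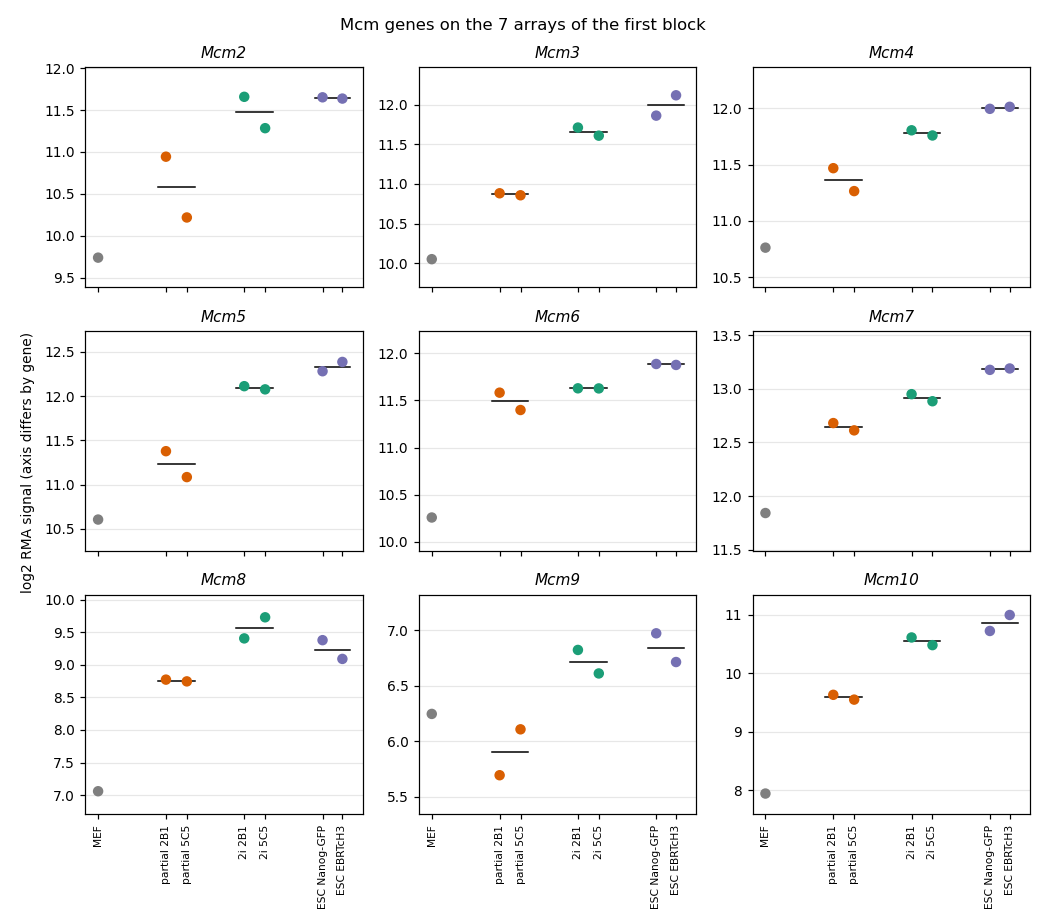
Level of each Mcm gene (y axis, log2 RMA signal, scale set per gene) on the 7 arrays of the first block (x axis); points are arrays and bars the mean of a group of 2. Both 2i and both ESC points lie above both partial points in all 9 panels, and the MEF point lies lowest in 8, all but Mcm9.

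An ordered pattern, with MEFs below both partial clones, these below both 2i arrays and these below both ESC arrays, was found for 8 of 48 members beside 3.09% of all tested genes. The 8 were Mcm3, Mcm4, Mcm5, Mcm6, Mcm7, Mcm10, Cdk2, the kinase partner of cyclin E, and Cdc25a, the phosphatase that activates it. The pattern was counted after the levels had been seen, so the share is a description. Most of its members act at the start of DNA replication.

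The sequences just upstream of these genes were looked up because E2f factors act there. RefSeq promoter windows of 300 bases (250 before and 50 after the start, build GRCm38.p6) were given for 39 of the 50 members, in 45 windows. An E2F word (TTTCGCGC, TTTGGCGC, TTTCCCGC or TTTGCCGC, either strand) was found in 12 member windows (26.7%) against 2.26% of all 32851 windows. The CCAAT box (CCAAT, either strand), read by the factor NF-Y, was in 60% of member windows against 37.4% of all, and the CHR word (TTTGAA, either strand), typical of mitotic genes, in 24.4% against 17.9%. The 12 genes with an E2F word were Cdc6, Cdc25a, Cdk1, Cdk2, E2f2, E2f3, E2f7, Mcm3, Mcm5, Mcm6, Mcm7 and Mcm8. Of these, 8 lay above both partial clones on both ESC arrays, beside 11 of the 25 tested members with a window but no E2F word, and E2f2, which carries one, had both ESC arrays below both partial arrays. A match is a description of letters and not a site of binding.

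The bases upstream of the 3 Mcm genes that passed the test and of Mcm6, which holds the most E2F words of the stretches shown, are given 5′ to 3′ on the coding strand, with E2F, CHR and CCAAT words of either strand in capitals (ATTGG is CCAAT read on the other strand). Positions count back from the base before the start as -1. Each stretch runs from -170 to -1, except that of Mcm5, which stops at -42, before the first base of the RefSeq gene.
Mcm3, chr1:20820313-20820482, minus strand: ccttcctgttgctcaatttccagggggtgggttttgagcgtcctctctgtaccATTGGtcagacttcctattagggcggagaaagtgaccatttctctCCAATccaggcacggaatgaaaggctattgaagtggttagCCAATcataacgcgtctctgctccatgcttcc
Mcm5, chr8:75109339-75109467, plus strand: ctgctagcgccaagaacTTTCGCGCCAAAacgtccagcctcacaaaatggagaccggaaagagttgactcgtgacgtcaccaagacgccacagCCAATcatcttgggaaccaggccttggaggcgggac
Mcm6, chr1:128359706-128359875, minus strand: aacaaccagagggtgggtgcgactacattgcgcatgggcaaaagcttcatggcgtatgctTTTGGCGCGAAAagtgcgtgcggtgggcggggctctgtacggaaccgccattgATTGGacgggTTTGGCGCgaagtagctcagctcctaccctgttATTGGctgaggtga
Mcm10, chr2:5012792-5012961, minus strand: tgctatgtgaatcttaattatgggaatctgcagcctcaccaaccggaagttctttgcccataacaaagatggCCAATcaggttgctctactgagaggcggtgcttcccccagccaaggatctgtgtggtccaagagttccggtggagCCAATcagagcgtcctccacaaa
Mcm6 carries 3 E2F words, 2 of which overlap in 1 capital run, and 2 CCAAT boxes. Mcm5 carries 2 overlapping E2F words and, in the stretch shown, 1 of the 3 CCAAT boxes of its window. Mcm3 shows 3 CCAAT boxes here, and its E2F words lie after the start, outside the stretch. Mcm10 has 2 CCAAT boxes in its stretch and no E2F word in its window.

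The factors that load and start the helicase varied more between the arrays of a group. Cdc6, which loads the ring onto origins, read 9.09 and 8.91 in partial iPSCs, 9.63 and 9.15 in 2i iPSCs, 10.32 and 9.55 in ESCs and 7.91 in MEFs. Its groups did not overlap against partial iPSCs, but the ESC difference of 0.94 ± 0.33 was not past the test (SE, limma adjusted p = 0.123). Cdc45, which travels with the helicase, stood 0.29 ± 0.18 higher in ESCs (SE, limma adjusted p = 0.334), and Cdc7, the kinase that fires origins, differed by at most 0.05 from partial iPSCs in either group.

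Other genes of origin licensing and the replication fork, from a list of 20 with Orc, Gins, Rfc and polymerase genes, lay on the same side. In ESCs all 20 had a difference above 0 from partial iPSCs, with a median of 0.68, beside 6357 of the 12663 tested genes. Of the 20, 5 passed the limma test, beside 6.09% of all tested genes that passed as higher. They were Orc1 (1.84 ± 0.23, SE, limma adjusted p = 0.00843), Orc5 and Orc6, of the origin recognition complex, and Gins3 and Gins4, of the complex that travels with Cdc45. In 2i iPSCs 19 of 20 were above 0, with a median of 0.46, beside 6632 of all tested genes. There 0 passed the limma test, beside 3.55% of all tested genes as higher. An unadjusted limma p below 0.05, a level not counted over all genes, was found for 9, all 9 higher. Of these 20 genes, 14 in 2i iPSCs and 18 in ESCs had both arrays above both partial arrays, beside 34.2% and 29.8% of all tested genes. A list of nucleotide supply genes, chosen as E2F targets, did not share this side. Of its 4 tested genes, 1 was above 0 in 2i iPSCs and 2 in ESCs, with medians of -0.28 and -0.18. In either group 0 of the 4 had both arrays above both partial arrays.

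The D-type cyclin gene Ccnd2 showed the largest difference of all members. It read 11.67 and 11.40 in partial clones 2B1 and 5C5, 9.85 and 10.23 in their 2i cells, 6.97 in Nanog-GFP ESCs, 5.55 in EBRTcH3 ESCs and 13.53 in MEFs. The 4 kinds of cells did not overlap and ran from MEFs down to ESCs, the reverse of the order of the Mcm genes. Ccnd2 fell by 5.28 ± 0.49 on the log2 scale from partial iPSCs to ESCs, a 38.8-fold difference (SE, n = 2 against 2, limma adjusted p = 0.00394), and passed the test in all 13 alternatives. It was 3.78 ± 0.49 higher in 2i iPSCs than in ESCs (SE, limma adjusted p = 0.0199), a call that leaving out a 2i array or averaging all probe sets ended (0.0113 to 0.196 over the alternatives). The lower level in 2i iPSCs than in partial iPSCs, -1.50 ± 0.49, did not pass (SE, limma adjusted p = 0.147). It passed in 3 of 14 alternatives: without either ESC array and with the 4 compared arrays alone. These are the same fit, without the ESC spread. All 7 probe sets of Ccnd2 had the same sign in each of the 3 comparisons.

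All 10 fibroblast genes had lower means in ESCs than in partial iPSCs, as Ccnd2 did. In 2i iPSCs, where Ccnd2 was lower than in partial iPSCs, only Cd44 and Dcn of the list were lower (-0.53 and -0.93). The others had higher means there, by 0.06 (S100a4) to 1.96 (Postn). Of the 10 fibroblast genes, 10 reached the test level in MEFs, 9 in each partial clone, 10 on each 2i array, and 1 and 3 on the ESC arrays. Cd44 read 11.74 and 11.72 in partial iPSCs, 11.12 and 11.28 in 2i iPSCs, with 2.93 and 2.92 in ESCs, while Col1a2 was higher in 2i iPSCs (12.28 and 12.50) than in partial iPSCs (11.15 and 10.62) and low in ESCs (5.97 and 5.70). The part of fibroblast-like cells in the level of Ccnd2 was not tested. Ccnd3, the other D-type cyclin gene measured here, differed little between groups but by 1.80 between the ESC lines (11.30 in Nanog-GFP, 9.50 in EBRTcH3), against 10.31 and 10.14 in partial iPSCs.

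Cdk6, a kinase partner of D-type cyclins, was also lower on the 2i and ESC arrays but differed widely between the ESC lines. It read 10.42 and 10.50 in partial iPSCs, 8.96 and 9.28 in 2i iPSCs, 10.15 in MEFs, 5.87 in Nanog-GFP ESCs and 8.99 in EBRTcH3 ESCs. All 2i and ESC arrays lay below the partial arrays, yet the mean ESC difference of -3.03 ± 0.98 did not pass (SE, limma adjusted p = 0.101). With Nanog-GFP or EBRTcH3 left out it was -1.47 or -4.60, and in both cases it passed (adjusted p = 0.0251 and 0.00413, of a range from 0.00413 to 0.238 over the alternatives). The 2i difference of -1.34 ± 0.98 did not pass (SE, limma adjusted p = 0.476), but did without either ESC array, whose spread is then out of the fit (adjusted p = 0.0275, of a range up to 0.811). Cdk4, the other kinase of this pair, stood between 11.61 and 12.29 on all 7 arrays.

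**Figure D2:**
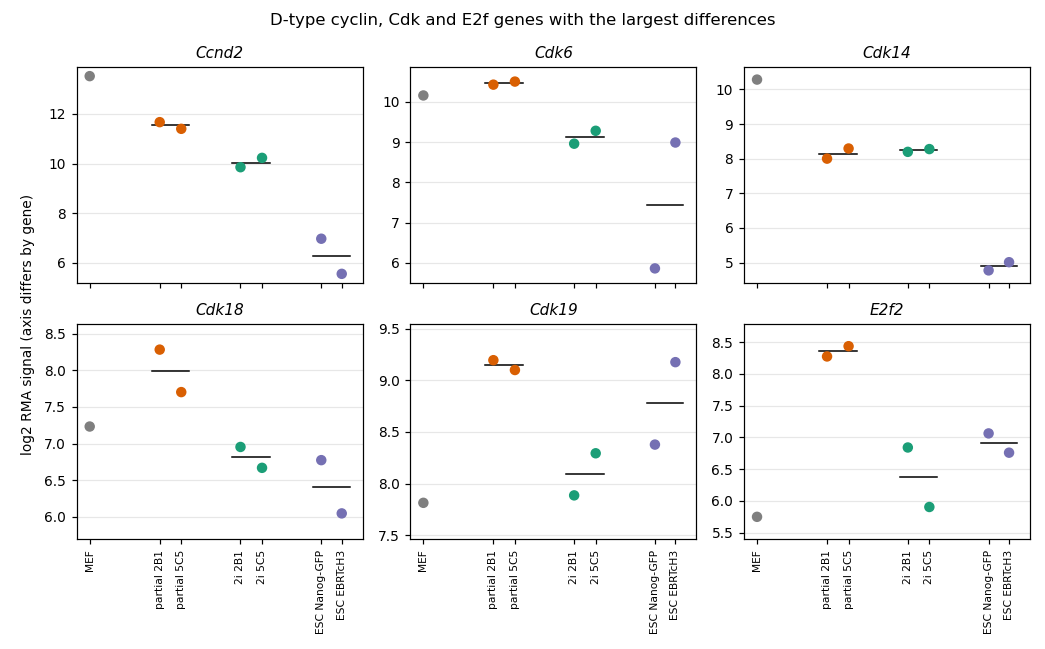
Level of 6 members with large differences (y axis, log2 RMA signal, scale set per gene) on the 7 arrays of the first block (x axis); points are arrays and bars the mean of a group of 2. Ccnd2 falls from MEF to ESC without overlap, Cdk14 is low in both ESC lines alone, and Cdk6 stands far apart in the ESC lines (5.87 and 8.99).

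Cdk2, the kinase of E-type cyclins, rose in ESCs, and the cyclins themselves did not pass the test. Cdk2 read 9.65 and 9.85 in partial iPSCs, 10.30 and 10.19 in 2i iPSCs, 10.67 and 10.70 in ESCs and 8.70 in MEFs. Its groups followed the order MEF, partial, 2i, ESC without overlap, and ESCs exceeded partial iPSCs by 0.94 ± 0.18 (SE, limma adjusted p = 0.0295); in 6 of 13 alternatives the call held, with adjusted p from 0.0196 to 0.107. Ccne1, cyclin E1, read 9.79 and 9.59 in partial iPSCs, 10.26 and 9.95 in 2i iPSCs, 10.12 in MEFs and 11.25 and 10.37 in the ESC lines. Both ESC arrays were above all others, by 1.12 ± 0.34 over partial iPSCs, which did not pass (SE, limma adjusted p = 0.0866). Ccne2, cyclin E2, lay between 7.67 and 8.20 on all 7 arrays, with the partial arrays spanning most of that range. Cdc25a stood 0.95 ± 0.24 higher in ESCs than in partial iPSCs (SE, limma adjusted p = 0.0577) and 0.70 ± 0.24 lower in 2i iPSCs than in ESCs (SE, limma adjusted p = 0.256).

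The bases from -170 to -1 of Cdk2 and Cdk14 are given to set a member that rose in ESCs beside one that fell, marked in the same way.
Cdk2, chr10:128705052-128705221, minus strand: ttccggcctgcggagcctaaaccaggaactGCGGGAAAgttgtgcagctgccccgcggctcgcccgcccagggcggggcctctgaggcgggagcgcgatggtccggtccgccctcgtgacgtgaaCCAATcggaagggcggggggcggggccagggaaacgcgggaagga
Cdk14, chr5:5380252-5380421, minus strand: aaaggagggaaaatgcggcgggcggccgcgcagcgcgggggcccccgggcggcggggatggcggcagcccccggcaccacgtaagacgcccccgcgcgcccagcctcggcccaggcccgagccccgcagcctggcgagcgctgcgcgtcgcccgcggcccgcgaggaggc
Cdk2 holds 1 E2F word and 1 CCAAT box, and Cdk14 none of the 3 kinds of word. The pair was picked for its directions and does not stand for other members. Cdk18, which also fell in ESCs, has a CCAAT box in its window, and E2f2, lower there, an E2F word. Cdk1 holds 1 E2F word, 2 CHR words and 2 CCAAT boxes in the same stretch, with an ESC difference of 0.33 that did not pass.

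Among the Cdks that do not run the core cycle, Cdk14, a membrane-linked kinase that pairs with cyclin Y and acts in Wnt signalling, separated ESCs from everything else. It read 8.001 and 8.29 in partial iPSCs, 8.20 and 8.28 in 2i iPSCs, 10.28 in MEFs and 4.77 and 5.01 in ESCs, the ESC values being below the level used for testing. It fell by 3.26 ± 0.21 on the log2 scale from partial iPSCs to ESCs (SE, limma adjusted p = 0.00178, called in all 13 alternatives) and was 3.35 ± 0.21 higher in 2i iPSCs than in ESCs (SE, limma adjusted p = 0.00345). The 2i difference from partial iPSCs was 0.09 ± 0.21, with the 2i arrays inside the range of the partial arrays. With the mean of all 3 probe sets, 2 of which are dim, the ESC difference was -1.26. The fibroblast genes were also near background in ESCs and present in partial and 2i iPSCs, and their part was not tested. The call against 2i iPSCs ended when a 2i array was left out (0.00248 to 0.0694 over the alternatives).

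Cdk18, a kinase of the Cdk16 group, read 8.28 and 7.70 in partial iPSCs, 6.95 and 6.67 in 2i iPSCs, 6.77 and 6.05 in ESCs and 7.23 in MEFs. It fell by 1.58 ± 0.34 from partial iPSCs to ESCs (SE, limma adjusted p = 0.0390), a call that held in 6 of 13 alternatives (adjusted p from 0.0292 to 0.131). In 2i iPSCs the difference of -1.18 ± 0.34 did not pass (SE, limma adjusted p = 0.118). Cdk20, a kinase linked to cilia and to Cdk2 activation, was dim and rose in ESCs, from 5.49 and 5.37 to 6.25 and 6.38 (0.88 ± 0.20, SE, limma adjusted p = 0.0437, held in 4 of 12 alternatives). Its 2i values of 6.37 and 6.06 were as high, with a difference of 0.79 ± 0.20 (SE, limma adjusted p = 0.0915).

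Of the Cdks that act in transcription, Cdk7, Cdk8, Cdk9, Cdk12, Cdk13 and Cdk19, 0 of 6 passed the limma test in any of the 3 comparisons, and 1, 1 and 0 had an unadjusted p below 0.05 in 2i against partial, ESC against partial and 2i against ESC. Over all tested genes 6.00%, 15.9% and 3.85% passed the limma test, in the same order. Cdk19, a kinase of the Mediator complex, had the largest difference. It read 9.19 and 9.10 in partial iPSCs, 7.89 and 8.29 in 2i iPSCs, 7.82 in MEFs and 8.38 and 9.18 in ESCs. Its 2i arrays lay below both partial arrays, by 1.06 on average (limma adjusted p = 0.130), and its ESC lines overlapped them. The other Cdk19 probe set that passed the filter did not show this, with a 2i difference of -0.02. It read 7.83 and 7.25 in partial iPSCs and 7.98 in MEFs.

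E2f2, an activator E2f, was the member that passed the test between 2i and partial iPSCs. It read 8.28 and 8.44 in partial iPSCs, 6.84 and 5.90 in 2i iPSCs, 7.06 and 6.76 in ESCs and 5.75 in MEFs. Partial iPSCs were thus above every other array of the block. E2f2 fell by 1.99 ± 0.35 on the log2 scale from partial to 2i iPSCs, a 3.96-fold difference (SE, n = 2 against 2, limma adjusted p = 0.0410). The call was lost without any 1 of the 4 compared arrays (adjusted p from 0.101 to 0.197) and with the clone as a replicate block (limma adjusted p = 0.0658), within a range from 0.0307 to 0.197 over 14 alternatives. The ESC difference of -1.45 ± 0.35 stood just outside the threshold (SE, limma adjusted p = 0.0515), and passed with the stricter filter (0.0468) or the mean of its 2 probe sets (0.0446). Both probe sets of E2f2 had the same sign in each comparison.

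The other E2f genes did not pass. E2f1, the best known activator, read 8.20 and 8.21 in partial iPSCs, 8.84 and 8.70 in 2i iPSCs and 9.51 and 8.31 in the ESC lines, and E2f8, an atypical repressor, showed the same split between Nanog-GFP (10.09) and EBRTcH3 (8.92) ESCs. E2f3 differed by at most 0.12 in its group means from partial iPSCs. E2f4, a repressor that sits on cell cycle genes in resting cells, was dim, with 6.17 and 6.51 in partial iPSCs and 7.12 and 6.98 in ESCs. Cyclins A2 and B2 and Cdk1, which carry mitosis, differed in group mean by at most 0.36 between partial iPSCs and either other group, with an unadjusted limma p below 0.05 for none. From untreated to 2i, Ccna2 stood at a difference of -0.45 in 2B1 and 0.47 in 5C5, Cdk1 by -0.15 and 0.52 and Ccnb2 by -0.03 and 0.56, each from 1 array per state and not tested.

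Over all 48 tested members, 1 passed the limma test between 2i and partial iPSCs, beside 6.00% of all 12663 tested genes (0 members and 3.55% of genes higher, 1 member and 2.46% lower). Between ESCs and partial iPSCs 8 (16.7%) passed, beside 15.9% of all tested genes (5 members and 6.09% of genes higher, 3 members and 9.82% lower). Between 2i iPSCs and ESCs, 2 members (4.17%) passed beside 3.85%, both of them higher in 2i iPSCs (3.69% of genes higher, 0.158% lower). The shares called were thus near those of all genes in the ESC comparisons and below it in the 2i comparison. At an unadjusted p below 0.05 the counts were 13, 23 and 4 members. The share of all tested genes at that level was not counted, here or for the smaller lists. These unadjusted counts therefore cannot be set against all genes. The median difference of the members was 0.13 in 2i iPSCs and 0.26 in ESCs against partial iPSCs. Members below both partial arrays on both arrays of a group numbered 11 in 2i iPSCs and 9 in ESCs, beside 29.5% and 29.1% of all tested genes. Centring each array on its median raised ESC differences by 0.17 throughout and gave 12 called members between ESCs and partial iPSCs, 9 higher and 3 lower, with Cdc25a, E2f4, Mcm4 and Mcm9 added. Over all tested genes the share of calls that were higher was then 51.2% against 38.3% as deposited.

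**Figure D3:**
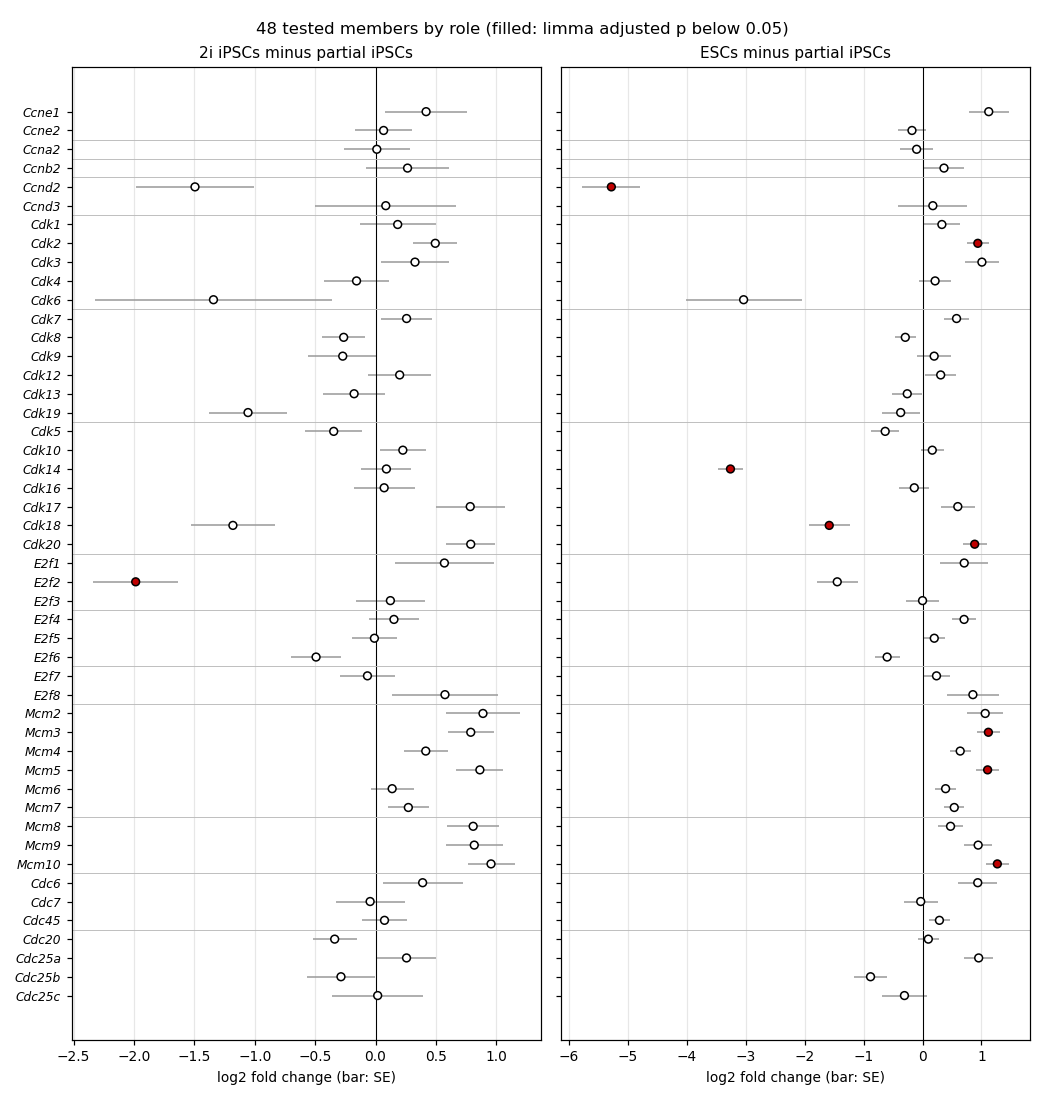
Log2 difference from partial iPSCs (x axis, a scale per panel) of the 48 tested members, ordered by role (y axis), for 2i iPSCs (left) and ESCs (right); bars are the SE of the limma fit and filled points have an adjusted p below 0.05. E2f2 is the filled point on the left, and on the right 3 filled points lie below 0, among them Ccnd2 at -5.28, and 5 above 0, 3 of them Mcm genes.

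Of 79 other cell cycle genes listed by role, 78 were tested. Against partial iPSCs, 4 passed in 2i iPSCs (1 higher, 3 lower) and 13 in ESCs (10 higher, 3 lower), with medians of 0.13 and 0.29. Over all tested genes 6.00% and 15.9% passed in these comparisons. Mybl2, the Myb factor that joins the MuvB complex at mitotic genes, read 9.11 and 8.33 in partial iPSCs, 11.80 and 11.27 in 2i iPSCs, 11.54 and 11.52 in ESCs and 7.42 in MEFs, and rose by 2.82 ± 0.34 in 2i iPSCs (SE, limma adjusted p = 0.0162) and by 2.81 ± 0.34 in ESCs (SE, limma adjusted p = 0.00775). The 3 that fell in both restrain the G1 phase. Rb1, the retinoblastoma gene, fell by 2.42 in 2i iPSCs and 1.87 in ESCs. Cdkn1a, which encodes p21, fell by 2.46 and 2.03. Cdkn2a, which encodes p16 and Arf, fell by 3.24 and 3.74. Cdkn2a read 8.49 and 8.34 in partial iPSCs, 4.79 and 5.55 in 2i iPSCs, 4.70 and 4.65 in ESCs and 6.91 in MEFs. The ESC values and the lower 2i value lay below the test level of 5.42, close to background, and background limits the size of its differences. In addition to the replication genes named above, Ccnf, a cyclin that is part of a ubiquitin ligase (1.54 ± 0.26, SE, limma adjusted p = 0.0207), Fbxo5, an inhibitor of the anaphase-promoting complex (1.44 ± 0.25, SE, limma adjusted p = 0.0220), Cdc23, a subunit of that complex, and Wee1, the kinase that restrains Cdk1, rose in ESCs. Between 2i iPSCs and ESCs 0 of the 78 passed the limma test, beside 3.85% of all tested genes. An unadjusted limma p below 0.05, a level not counted over all genes, was found for 8.

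MEFs, with 1 array and no test, held the lower end for much of the machinery. On the MEF array 24 of 48 members were below all 6 partial, 2i and ESC arrays, beside 30.1% of all tested genes, and 5 were above all 6 (Ccnd2, Cdk5, Cdk14, Cdk16 and E2f6), beside 24.7%. At least 2-fold below both partial clones stood 9 members, beside 11.3% of all genes: E2f2 (differences of -2.53 and -2.69 from 2B1 and 5C5), Ccnb2, Cdc6, Cdc7, Cdk19, E2f5, Mcm6, Mcm8 and Mcm10. The other passing probe set of Cdk19 was above both clones in MEFs. Mcm8 read 7.06 in MEFs, with differences of -1.71 and -1.69 from 2B1 and 5C5, and Mcm10 read 7.94, with differences of -1.69 and -1.61. Ccnb2, cyclin B2, read 9.59 in MEFs against 11.50 and 10.74 in partial iPSCs, and E2f5, a partner of the Rb-like proteins, 7.97 against 9.27 and 9.19. Ccnd2 and Cdk14 stood at least 2-fold above both clones, beside 9.90% of all genes, Ccnd2 by 1.86 and 2.13 and Cdk14 by 2.28 and 1.99. Of the 78 other cell cycle genes, 65 were below the mean of the partial clones, beside 6769 of the 12663 tested genes.

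Within each group of 2 arrays, few members differed 2-fold. Between the partial clones Cdc25c, a phosphatase that activates Cdk1, was the 1 member of 48 at least 2-fold apart, beside 10.6% of all tested genes. Between the 2i arrays there was no such member, beside 1.73%. Between the ESC lines there were 5 (Ccnd2, Ccnd3, Cdk6, E2f1 and E2f8), beside 15.8%.

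On the transduced arrays, each set against the empty vector array without replicates, few members reached a 2-fold difference. A difference of at least 1 was found for 3 members on the Cnot1 array, all lower (Cdc6, Ccne2 and Cdk14), beside 5.87% of all tested genes that were lower by as much and 4.15% higher. The Cnot2 array had 1 such member, Mcm9 (lower, beside 3.89% of genes lower and 2.87% higher), the Cnot3 array 1, Cdk14 (lower, beside 5.19% lower and 2.49% higher), and the Cnot123 array 2, Ccne1 and Cdk6 (higher, beside 3.72% higher and 8.43% lower). The Trim28 and Nanog arrays had 0, beside 0.963% and 0.561% of all genes higher and 1.52% and 0.869% lower. At a difference of at least 0.5, the Cnot1 array had 3 members higher and 9 lower, beside 12.7% and 16.9% of all genes, and the Cnot2 array 3 and 5, beside 9.31% and 12.3%. The Cnot3 array had 5 higher and 2 lower, beside 9.56% and 14.3%, and the Cnot123 array 8 and 4, beside 14.1% and 19.1%. The Trim28 array had 1 higher and 0 lower, beside 5.68% and 8.41%, and the Nanog array 1 and 2, beside 3.14% and 4.09%.

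Cdc6 read 9.26 on the vector array, 7.75 with Cnot1, 8.29 with Cnot2, 9.11 with Cnot3, 9.12 with Cnot123, 9.23 with Trim28 and 9.13 with Nanog. The Cnot1 and Cnot2 arrays were thus alone below 9. Ccne2 read 8.68 with the vector, 7.36 with Cnot1, 7.96 with Cnot2, 8.78 with Cnot3, 9.06 with Cnot123, 9.13 with Trim28 and 8.55 with Nanog, again lowest on the Cnot1 and Cnot2 arrays. In all, 14 of 48 members had these 2 arrays below each of the other 5, beside 13.9% of all tested genes, a count made after the levels had been seen. They were Ccne2, Cdc6, Cdc20, Cdk2, Cdk5, Cdk9, Cdk12, E2f3, E2f6, Mcm4, Mcm5, Mcm6, Mcm7 and Mcm9.

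The Mcm genes took a different side on the arrays of the Ccr4-Not subunits. With Cnot1 and with Cnot2, 8 of 9 were below the vector array, Mcm2 being the exception, with medians of -0.43 and -0.25; with Cnot3, 8 of 9 were above it, Mcm9 being the exception, with a median of 0.23. Of the 12663 tested genes, 6978 were below the vector with Cnot1 and 6928 with Cnot2, and 6156 were above it with Cnot3, with medians of -0.05, -0.04 and -0.01. Mcm7 read 12.48 with the vector, 11.86 with Cnot1, 11.97 with Cnot2, 12.56 with Cnot3, 12.64 with Cnot123, 12.44 with Trim28 and 12.31 with Nanog. Mcm2 read 10.16 with the vector, 10.30 with Cnot1, 10.34 with Cnot2, 10.95 with Cnot3, 11.07 with Cnot123, 10.61 with Trim28 and 10.07 with Nanog, and so stood highest with Cnot3 and Cnot123. With Cnot123, 6 of 9 were above the vector, beside 6261 of all tested genes. With Nanog all 9 were below it by small amounts (median -0.17), beside 6696 of all tested genes (median -0.01). These counts of Mcm genes were the same after quantile normalization; after centring, 7 were above with Cnot123 and 8 below with Nanog, and with Trim28 the count above the vector went from 5 to 8. Each value rests on 1 array, and all 6 differences share the vector array.

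Ccnd2 and Cdk6, which were lower in 2i iPSCs and ESCs, were above the vector on all 6 other arrays. So were Cdk3, Cdk17, E2f2 and E2f4. All 6 differences share the vector array, and the share of all tested genes above it on all 6 was not counted. Ccnd2 read 11.02 with the vector, 11.73 with Cnot1, 11.74 with Cnot2, 11.42 with Cnot3, 11.89 with Cnot123, 11.25 with Trim28 and 11.09 with Nanog. Cdk6 read 9.83 with the vector, 10.46, 10.43, 10.36 and 10.86 with Cnot1, Cnot2, Cnot3 and Cnot123, 10.17 with Trim28 and 9.93 with Nanog. The Cnot123 array was highest for both. The 10 fibroblast genes also averaged highest on that array, 7.85 against 7.13 with the vector, and their part was not tested. Of these genes, Twist1 and Dcn were below the vector there (-1.64 and -1.31) and the others above it.

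Ccne1 read 8.75 with the vector, 9.58 with Cnot3 and 9.79 with Cnot123, and between 8.74 and 9.05 on the other arrays. Cdk14 read 6.97 with the vector and was lower on all 6 other arrays, down to 5.84 with Cnot3 and 5.88 with Cnot1. Mcm9 was likewise below the vector (6.31) on all 6, and lowest with Cnot2 (5.15). Members below the vector on all 6 arrays numbered 9 of 48, beside 19.1% of all tested genes. Among smaller differences, Cdk17, a kinase of the Cdk16 group, was 0.67, 0.65, 0.62, 0.43, 0.56 and 0.15 above the vector with Cnot1, Cnot2, Cnot3, Cnot123, Trim28 and Nanog. E2f4 was 0.48 above it with Trim28, E2f1 0.57 below it with Nanog, and Cdk3 0.58 above it with Nanog. Cdk19 was 0.72 below it with Cnot123 and 0.41 above it with Nanog. The other passing Cdk19 probe set read 6.94 with the vector, 6.80 with Cnot123 and 7.23 with Nanog.

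**Figure D4:**
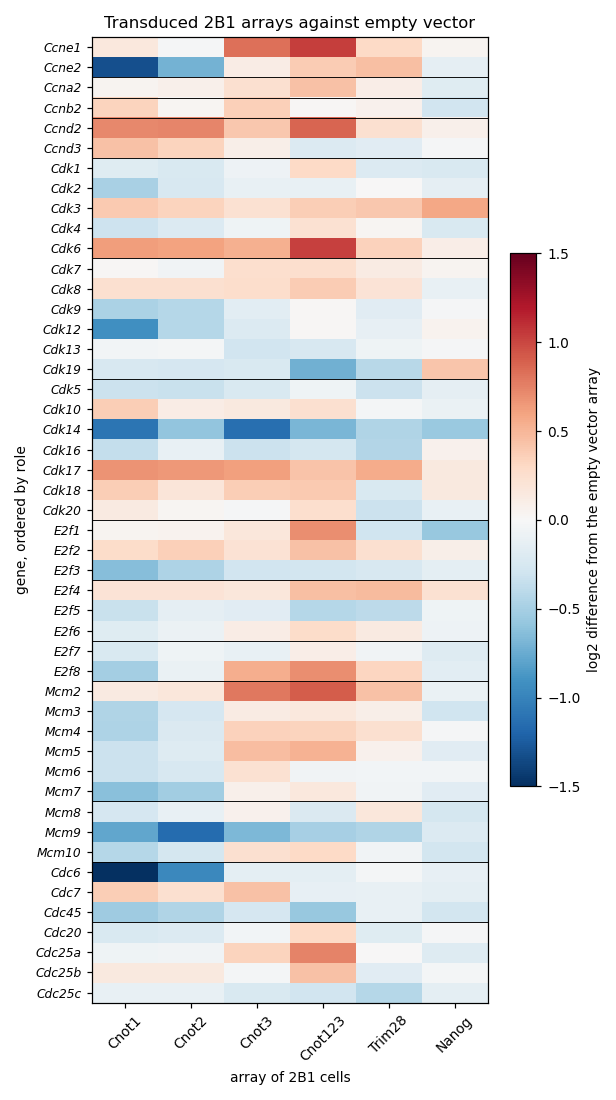
Log2 difference from the empty vector array (colour, red above and blue below) of the 48 tested members (y axis, ordered by role) on the 6 other transduced 2B1 arrays (x axis), 1 array each. Cdc6 and Ccne2 are the darkest blue cells on the Cnot1 array (-1.50 and -1.32), and Mcm2 to Mcm7 are mostly blue with Cnot1 and Cnot2 and mostly red with Cnot3 and Cnot123.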

How the data were processed

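The deposited log2 values are probe set summaries that the authors made with RMA and the affy package, per the submitters' processing notes; their versions are not stated in those notes. RNA was isolated with TRIzol and hybridized as biotinylated cRNA, per the labels' protocols. Values of the arrays were nearly alike in distribution within 2 blocks of 7 (median range of the sorted values 0.0846 and 0.0960) and less so over all 14 (0.318), so the blocks were treated as separately normalized.

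Of 45101 probe sets, 34945 had 1 gene symbol in the platform annotation; 64 were controls, 932 had several symbols and 9160 none listed. Each gene was read from its brightest probe set (mean of 14 arrays). Members had 122 probe sets: of 55 others that passed the filter, 41, 45 and 47 had the sign of the brightest in the 3 comparisons. Genes with at least 2 of 14 arrays at or above the table's median (5.42) were tested, 12663 in all. Arrays have no read depth, and their number limits the precision.

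Partial iPSCs, 2i iPSCs and ESCs (2 arrays each) were tested in limma 3.58.1 under R 4.3.3 (eBayes on a linear model of 6 arrays, two-sided, Benjamini-Hochberg over all tested genes, called below 0.05), a procedure tested on simulated data. Conditions with 1 array were counted without a test. Untreated and 2i arrays share a clone and so form pairs; their deviations from the group means correlated at 0.111 across genes. Alternatives changed the filter, scaling, probe set choice, arrays, prior and block. Leaving out either array of the group not compared gives the same fit as the compared arrays alone. Counts of alternatives therefore hold that fit more than once.

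Named were members called in a comparison, the 5 with the largest differences in each, those 2-fold from both partial clones in MEFs, the 2 furthest from the vector in each direction on each transduced array, and members that moved opposite ways in the 2 clones, each by at least 0.5 (log2). Other members are given as ranges or as examples chosen after their values were seen. Members, lists and rules were chosen with earlier results of these data known. Promoter windows are from RefSeq (GRCm38.p6). Marker lists for endoderm, trophoblast, blood and neural cells had means of 3.89 to 5.72, 4.28 to 5.75, 4.57 to 5.85 and 3.63 to 8.43 over the 14 arrays, the neural list being highest in partial clone 5C5.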

Additional observations from a re-analysis of the deposited data

Results flagged for a closer look

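Cdc25c, which encodes a phosphatase that activates Cdk1 for mitosis, went opposite ways in the 2 clones when they were converted in 2i medium. In 2B1 it read 8.88 untreated and 8.28 in 2i, a log2 difference of -0.592. In 5C5 it read 7.85 untreated and 8.48 in 2i, a difference of 0.627. The untreated clones lay further apart than their 2i arrays. The other passing probe set of Cdc25c moved less, from 8.38 to 8.03 in 2B1 and from 7.69 to 8.13 in 5C5. Each value rests on 1 array per state, and the difference between the clones was not tested. How many of all tested genes moved opposite ways by as much was not counted.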

How the results depend on the processing

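Among partial iPSCs, 2i iPSCs and ESCs, the differences of members called in a comparison or among the largest in it kept their direction in the alternatives run. Smaller differences of other named members are not covered by this statement. Against the vector, some small Mcm differences changed sign with centring, as counted above. Ccnd2 and Cdk14 passed between ESCs and partial iPSCs in all 13 alternatives; every other member call was lost in at least 1. Called members between 2i and partial iPSCs, 1 as reported (E2f2), were 2 with no filter (Mcm10 added), 4 with the 4 compared arrays alone, 4 with a trended prior and 0 with the clone as a replicate block, in which 823 of all tested genes were called against 760 without it. The block changed no other member's call. Leaving out 1 array gave 0 to 4 members and 43 to 1396 genes in this comparison, 2 to 12 members and 780 to 2328 genes between ESCs and partial iPSCs, and 0 to 3 members and 0 to 786 genes between 2i iPSCs and ESCs. The low ends came without a 2i array in the 2i comparisons (43 and 50 genes against partial iPSCs, 0 and 1 against ESCs) and, for ESCs against partial iPSCs, without a 2i array (780, 2 members) or a partial clone (1163 and 1343 genes, 3 and 2 members); a lone array was assumed to vary like the other groups. With the 4 compared arrays alone, 1396 genes were called for 2i and 780 genes with 2 members (Ccnd2 and Cdk14) for ESCs against partial iPSCs. Leaving out either array of the group not compared repeats that fit, so these alternatives are not separate. With the mean of all probe sets, 1 member (Cdk14) was called between 2i iPSCs and ESCs.

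Of members at least 1 from the vector, the Cnot3 array had 0 after quantile normalization, and the Cnot2, Cnot3 and Cnot123 arrays had 0 with the mean of all probe sets. At a difference of 0.5 that mean gave 5 members for Cnot2 and 1 for Nanog (8 and 3 as reported), and centring gave 4 for Trim28 (1 as reported). The cause was not tested. The number of arrays limits all comparisons, and members near 5.42 on the log2 scale (Mcm9, Cdk20, Cdk3) lie close to background.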
